A study of Mus musculus with 8 samples.

Results

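T cells of the mouse colonic lamina propria were described that held transcripts of Nkg7 and Ccl5 and none of Gzmk. Cells were taken from the list of cells the authors kept. Each had at least 2 UMIs (unique molecular identifiers, the counted molecules) over the T cell genes Cd3e, Cd3d, Cd3g, Trac and Trbc2, and at most 1 UMI each of Cd79a, Col3a1 and C1qa, which mark B cells, fibroblasts and macrophages. No UMI of Foxp3, Il17a or Gzmk was allowed, at most 1 UMI of Ifng, and at least 1 UMI each of Nkg7 and Ccl5 was required. This gave 933 cells out of 27420 listed cells and out of 19833 T cells that passed the lineage part of the rule. These 933 cells are called the Nkg7+ Ccl5+ cells below. Because the rule uses measured transcripts, the levels of its own genes describe the choice and are no result.

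The study profiled CD4-enriched cells from digested colons of C57BL/6 mice aged 10 to 12 weeks by droplet single-cell RNA sequencing of transcript 3' ends. Mice were wildtype, or carried an alanine substitution in the transcription factor RORgt, named S182A in the series title and S203A knock-in in the sample titles. The 4 groups of 2 libraries each were untreated wildtype, untreated mutant, and wildtype and mutant mice given 2% dextran sulfate sodium (DSS) in drinking water for 7 days followed by plain water for 3 days. Untreated mice drank plain water for 10 days, and all mice were taken on day 10, 3 days after the end of the DSS. The mice were housed free of specific pathogens, and no other allele or agent is named. By its design text the series compares DSS with no treatment in wildtype mice, and mutant with wildtype mice within each treatment.

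DSS damages the colonic epithelium and sets off inflammation that T cells join. Nkg7 is a membrane protein of cytotoxic granules, and Ccl5 is a chemokine that draws other leukocytes. Both are known from natural killer cells, CD8 T cells and the CD4 T cells that take on a cytotoxic or type 1 helper character. Granzymes are proteases that such cells release into targets, and Gzmk marks a T cell state that differs from the one marked by Gzmb. RORgt directs the Th17 programme of CD4 T cells.

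The number of Nkg7+ Ccl5+ cells differed widely between libraries. Untreated wildtype replicates 1 and 2 held 211 and 107, untreated mutant replicates 189 and 58, DSS-treated wildtype replicates 77 and 108, and DSS-treated mutant replicates 23 and 160. Their summed UMIs ran from 52394 in DSS-treated mutant replicate 1 to 740269 in untreated wildtype replicate 1, so the former library gives the least precise levels. Median UMIs per cell ran from 1957 to 3656 over libraries. No cell barcode occurred among these cells in more than 1 library, and 7 of the 933 barcodes were also listed in another library. The series' design text describes the 2 libraries of a group as biological replicates that are independent. The substitution cannot be seen in gene counts, so these do not check the genotype.

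Many cells lay close to the edge of the rule. Nkg7 stood at a single UMI in 472 cells (50.6%), Ccl5 in 202 cells and both in 107 cells. Just outside, 791 cells met every other condition with Nkg7 and no Ccl5 UMI, and 1254 with Ccl5 and no Nkg7 UMI. A further 186 cells were left out only for a Gzmk UMI and 277 only for more than 1 Ifng UMI, while 245 of the 933 cells held 1 Ifng UMI. Free RNA was gauged in fibroblast-like barcodes, which should lack both genes. These lay outside the authors' list and held at least 5 Col3a1 UMIs and no UMI of the T cell genes of the rule. That last condition can leave out barcodes with free T cell RNA, so shares found in these barcodes may be too low. After thinning to 1000 UMIs per barcode, 0 to 0.222% of them per library held both, and 0 to 0.555% without thinning, at median depths of 3912 to 7388 UMIs before thinning. Ccl5 alone was found in 1.22% to 2.88% of them after thinning and in 3.69% to 8.06% without it, and the rule was applied without thinning. The part of free Ccl5 RNA in the choice of cells with a single Ccl5 UMI was not tested.

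Markers of other lymphocytes were then looked at. None of the 933 cells lacked a Cd4 UMI and 548 (58.7%) held exactly 1. How the authors' list was made is not given in the sources used here, so Cd4 is not taken as a check of the label, and neither are the T cell genes of the rule. A Cd8a or Cd8b1 UMI was found in 14 cells and a gamma-delta T cell gene in 73. Of 8 natural killer markers 1, Klra8, was at 0, and of 5 invariant T cell markers 3 were at 0 (Trav11, Traj18 and Traj33). These 4 genes were also at 0 in cells of the same gate without Nkg7 and Ccl5. Summed natural killer markers ran from 66.6 to 150 UMIs per 1000000 UMIs of the class (CPM) in untreated and from 91.4 to 458 CPM in DSS-treated libraries. In the cells without Nkg7 and Ccl5 they ran from 61.1 to 107 CPM. Summed gamma-delta T cell genes ran from 16.7 to 41.4 CPM, against 4.44 to 11.1 CPM in the cells without Nkg7 and Ccl5. The part of natural killer or gamma-delta T cells in the results below was not tested. The cathepsin Ctsw, a granule protease of cytotoxic lymphocytes, which the rule did not use, had a UMI in 284 of the 933 cells (30.4%).

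A small group of cells also carried transcripts of another lineage. Of the 933 cells, 65 are called mixed-lineage cells. They held at least 10 UMIs over Cd74, H2-Aa, H2-Ab1 and H2-Eb1, genes of MHC class II presentation, or at least 5 UMIs over markers of other lineages. The latter were macrophage, B cell, fibroblast, epithelial, endothelial, neutrophil and dendritic markers and the plasma cell gene Mzb1. Immunoglobulin genes, Jchain and Xbp1 were not counted, so immunoglobulin RNA is not screened. Leaving out mixed-lineage cells lowers the counted genes by definition. These cells made up 3.74% to 21.7% of the cells per library, the highest share being 5 of 23 cells in DSS-treated mutant replicate 1. Among cells of the same gate without Nkg7 and Ccl5, the share was 2.85% to 5.97%. Among cells of that gate with a Gzmk UMI it was 0% to 12.5%. In untreated wildtype replicate 1 and untreated mutant replicate 1 it was 10.5% and 12.5% there, against 5.21% and 8.99% in the Nkg7+ Ccl5+ cells. Summed macrophage markers ran from 109 to 343 CPM in untreated and from 113 to 664 CPM in DSS-treated libraries. Summed B cell markers ran from 334 to 673 CPM and from 241 to 6422 CPM, and plasma cell markers from 433 to 831 CPM and from 339 to 5103 CPM, both highest in DSS-treated wildtype replicate 1. Summed dendritic cell markers reached 281 CPM in untreated mutant replicate 1 and 0 to 89.6 CPM in the other libraries. The part of these transcripts in the results below was looked at only by leaving out mixed-lineage cells. Whether such cells are doublets or single cells that make these transcripts themselves was not tested. For the DSS comparison the counts of functional gene lists below are given with and without mixed-lineage cells where they differ.

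The level of genes outside the rule was set beside that in 7303 cells of the same gate without a Nkg7 or Ccl5 UMI and in 680 cells with Gzmk. The Gzmk cells passed the same gate with at least 1 Gzmk UMI, whatever their Nkg7 and Ccl5. Only 186 of them held both Nkg7 and Ccl5, so a difference from Gzmk cells is not one of Gzmk alone. Of 5439 genes at 10 CPM or more in the Nkg7+ Ccl5+ cells, 5.68% were higher in the Nkg7+ Ccl5+ cells than in the Nkg7- Ccl5- cells in 8 of 8 libraries, and 4.96% were higher in none. Since that minimum was set on the Nkg7+ Ccl5+ cells alone, it tilts these shares toward higher genes. Since cells were chosen by expression, these are descriptions with no test. All class values are CPM of summed UMIs, given as the mean ± SD over 8 libraries.

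Of 17 listed genes of the cytotoxic granule, 8 were higher than in the Nkg7- Ccl5- cells in 8 of 8 libraries, with a median ratio of 2.13. Against Gzmk cells 0 of the 17 were higher in 8 of 8 libraries, with a median ratio of 1.30. Of 13 lamin, LIM domain, annexin, S100 and galectin genes, 7 were higher than in the Nkg7- Ccl5- cells in 8 of 8 libraries (median ratio 1.49), and 4 were higher than in Gzmk cells (median ratio 1.21). Over the 5439 genes the median ratio was 1.01 to either class, under the minimum just given, which was not applied to the lists. Ctsw stood at 109 CPM ± 18.9 against 25.7 CPM in the Nkg7- Ccl5- cells. By library it was 127, 119, 120 and 104 CPM in untreated and 73.1, 124, 115 and 89.4 CPM in DSS-treated mice, so treated and untreated libraries overlapped. Gzma, a granzyme, stood at 236 CPM ± 134 against 18.3 CPM, a ratio of 12.9. Its libraries spread widely, from 19.1 CPM in DSS-treated mutant replicate 1 to 409 CPM in DSS-treated mutant replicate 2. The low end lies near the floor, as only 1 of the 23 cells of that library held Gzma. Gzmb, the granzyme that activates caspases in targets, stood at 252 CPM against 106 CPM, with 127 to 401 CPM over libraries. Fasl, the death ligand, stood at 85.8 CPM against 18.5 CPM. Serpinb9 and Serpinb6b, serpins that inhibit granule proteases, stood at 175 and 239 CPM against 49.2 and 65.4 CPM.

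Perforin was scarce beside these granzymes. Prf1, which forms the pore that lets granzymes enter, had a UMI in 13 of 933 cells, a mean of 3.85 CPM, and Gzmm stood at 0.711 CPM. A granzyme UMI was seen in a minority of cells: 302 (32.4%) held a UMI of Gzma, Gzmb or Gzmc. At median depths of 1957 to 3656 UMIs per cell, a cell without a UMI may still hold the transcript, so this share is a lower bound. Gzma was found in 138 cells and Gzmb in 223, and 63 cells held both. After thinning to 1000 UMIs, Gzmb was seen in 13.2% of the cells, 5.04% of Nkg7- Ccl5- cells and 0.05% of fibroblast-like barcodes. Gzma was seen in 9.51%, 1.08% and 0.15%, and Ctsw in 10.7%, 2.52% and 0.10%. A single cell of DSS-treated mutant replicate 1 held 35 of the 47 Gzmc UMIs, so its mean level describes 1 cell.

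Chemokine and receptor genes differed gene by gene. Xcl1, a chemokine that attracts cross-presenting dendritic cells, stood at 68.3 CPM against 1.92 CPM, but only 41 cells held it and DSS-treated mutant replicate 1 alone reached 382 CPM. Without that library's level the others ran from 6.09 to 48.6 CPM. Ccl4, another inflammatory chemokine, stood at 69.7 CPM against 11.8 CPM. Cxcr6, a receptor of tissue-resident lymphocytes, stood at 291 CPM against 120 CPM in Nkg7- Ccl5- cells and 141 CPM in Gzmk cells, higher in 8 of 8 libraries in both cases. Ccr7 and S1pr1, which guide recirculation through lymphoid organs, stood at 174 and 71.7 CPM against 253 and 136 CPM. The collagen-binding integrin Itga1 stood at 38.6 CPM against 8.27 CPM, whereas Itgae, the E-cadherin-binding integrin of epithelial lymphocytes, stood at 24.2 CPM against 19.4 CPM. Cd7, an early lymphoid surface protein, stood at 56.3 CPM against 5.34 CPM.

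Receptors shared with natural killer cells were low. Over the 13 measured, the median ratio to the Nkg7- Ccl5- cells was 2.46, and 3 were higher in 8 of 8 libraries. Klrc1 stood at 32.0 CPM against 9.05 CPM, Klrd1 at 24.4 CPM against 7.81 CPM, and Cd226 at 39.8 CPM against 11.4 CPM. Klrk1, which encodes NKG2D, stood at 34.3 CPM against 13.9 CPM.

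Of 25 listed transcription factors, 6 were higher in 8 of 8 libraries and 1 in none, with a median ratio of 1.18. Tbx21, which encodes T-bet, stood at 41.8 CPM against 10.1 CPM, and Id2 at 734 CPM against 393 CPM. Il12rb2 and Il18rap, receptor chains for interleukins that drive this programme, stood at 127 and 107 CPM against 38.6 and 45.6 CPM. The transcription factors Tcf7 and Lef1 stood at 158 and 46.2 CPM against 231 and 107 CPM. Myb, a transcription factor, and Slamf6, a surface receptor, were among the genes named for the lowest ratios, at 25.6 and 43.8 CPM against 97.0 and 104 CPM. Tcf7, Slamf6 and Myb were lower in 8 of 8 libraries. Eomes, a T-box factor of cytotoxic lymphocytes, stood at 8.85 CPM in the Nkg7+ Ccl5+ cells, 96.0 CPM in Gzmk cells and 0.614 CPM in Nkg7- Ccl5- cells. The Gzmk cells were above the Nkg7+ Ccl5+ cells for Eomes and Maf in 8 of 8 libraries, with Maf at 1206 against 877 CPM. Another 4 of the 25 factors were higher in the Nkg7+ Ccl5+ cells in 8 of 8 libraries. These were Zeb2 (259 against 133 CPM), Rora (849 against 546 CPM), Ikzf3 (199 against 151 CPM) and Id2 (734 against 506 CPM). Over all 5439 genes, 0.809% were lower and 1.56% higher than in Gzmk cells in 8 of 8 libraries. S100a4, a calcium-binding protein of effector cells, was on the higher side at 518 CPM against 202 CPM. Gzma stood at 236 CPM in the Nkg7+ Ccl5+ and 227 CPM in the Gzmk cells.

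**Figure D1:**
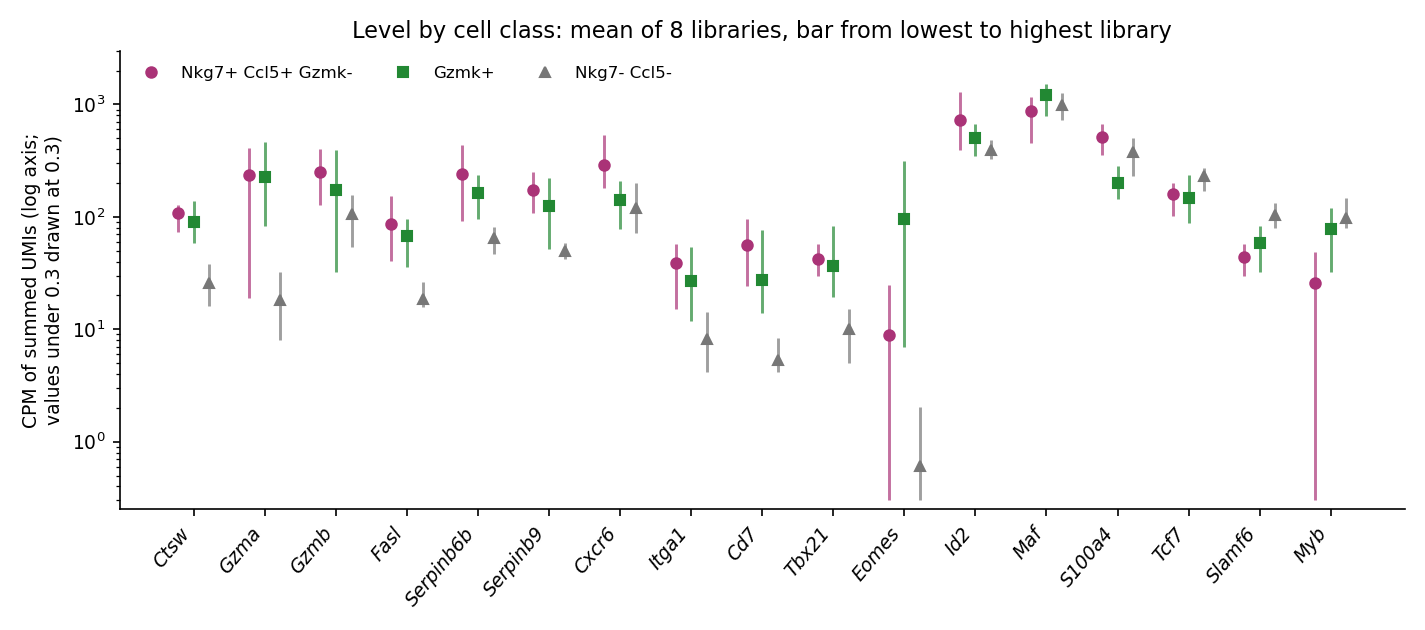
Levels of 17 genes outside the selection rule in 3 classes of T cells (x axis, genes; y axis, CPM of summed UMIs, log axis). Points are means of 8 libraries and bars run from the lowest to the highest library; Ctsw and Fasl lie above the Nkg7- Ccl5- cells, and Eomes lies at 8.85 CPM against 96.0 CPM in Gzmk cells.

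Cytokine genes and a peptide precursor were described as well. Il22, which acts on epithelium, had 337 UMIs in 24 cells, and 91.7% of those UMIs lay in mixed-lineage cells. Its mean of 178 CPM against 169 CPM in Nkg7- Ccl5- cells is therefore a value of few cells. Penk, the precursor of enkephalin peptides, was found in 68 cells with 374 UMIs, and 14.4% of these UMIs lay in mixed-lineage cells. Tnf stood at 30.1 CPM against 15.4 CPM and Il10 at 53.0 CPM against 89.0 CPM.

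The share of these cells among T cells was compared between treatments and genotypes. Cells were thinned to 1000 UMIs so that depth did not set the share, and the rule was applied again to the thinned counts. In untreated wildtype mice the cells made up 6.22% (95% Wilson interval 5.12 to 7.53) and 2.87% (2.17 to 3.78) of the T cells. Untreated mutants had 6.51% (5.36 to 7.89) and 1.47% (0.995 to 2.16). After DSS, wildtype mice had 1.55% (1.12 to 2.15) and 3.25% (2.54 to 4.14), and mutants had 0.847% (0.529 to 1.35) and 3.02% (2.41 to 3.79). These intervals cover counting error only. The 2 replicates of each untreated group lay farther apart than any of the 4 group means, which ran from 1.94% to 4.54%. Of the 4 DSS-treated libraries, 3 lay within the untreated range.

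The mean was 2.17% after DSS and 4.27% in untreated mice, a difference of -2.10 percentage points that did not pass an exact two-sided permutation test over 8 libraries (p = 0.257). The mutant and wildtype means were 2.96% and 3.47% (difference -0.508, exact permutation p = 0.714). The smallest p that this test can give is 0.0286, and groups of 2 against 2 libraries were not tested since 0.33 is the smallest p there. With cells that held Foxp3 or Il17a after thinning taken out of the denominator, the differences were -2.39 for DSS (exact permutation p = 0.257) and -0.630 for the mutation (exact permutation p = 0.629). Cells that lost those UMIs by thinning stayed in that denominator. In DSS-treated mutant replicate 2, T cells holding either gene made up 37.6% before and 18.1% after thinning. The sign for the mutation turned when untreated wildtype replicate 1 was left out (0.408) or DSS-treated mutant replicate 1 was left out (0.198). Unthinned shares ran from 0.878% to 10.5% over libraries, with means of 3.05% after DSS and 7.12% in untreated mice (difference -4.06, exact permutation p = 0.114). Thinned to 1500 UMIs, the difference was -2.91 (exact permutation p = 0.143). Cells under 1000 UMIs could not be thinned, which left out 12 to 81 T cells per untreated library and 10 to 70 per DSS-treated library. Many more failed the rule when it was applied again to the thinned counts. Gated T cells fell from 2071 to 1544 in untreated wildtype replicate 1 and from 3507 to 2381 in DSS-treated mutant replicate 2. The Nkg7+ Ccl5+ cells fell from 211 to 96 and from 160 to 72 in these libraries.

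**Figure D2:**
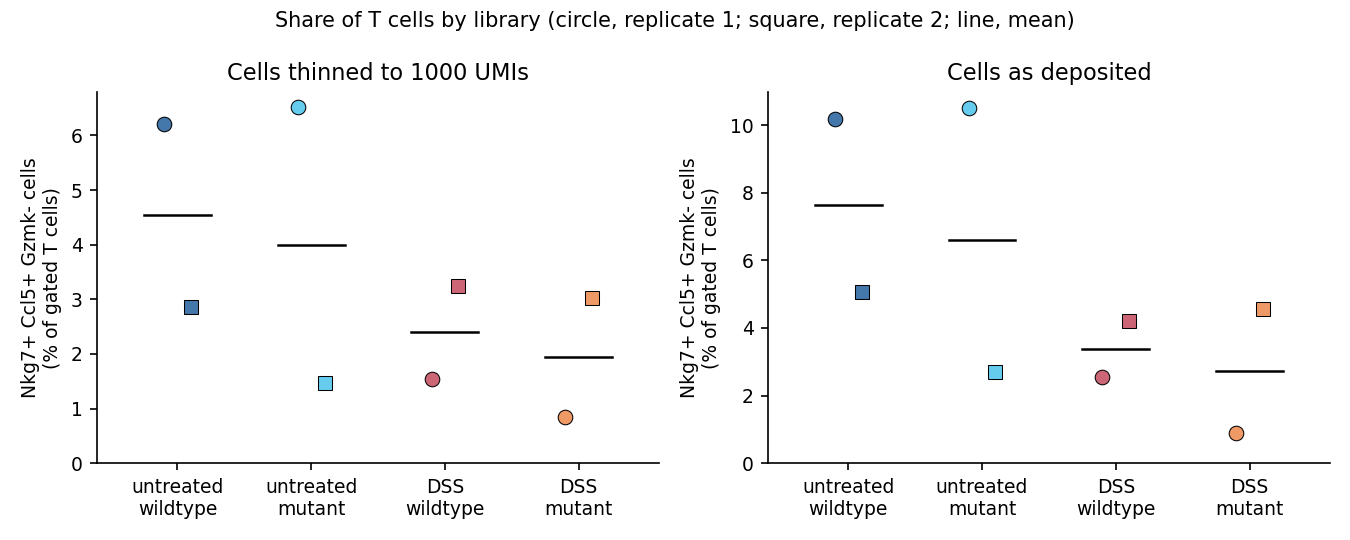
Share of Nkg7+ Ccl5+ Gzmk- cells among gated T cells (y axis, percent) in the 8 libraries, by group (x axis), with cells thinned to 1000 UMIs on the left and as deposited on the right. Points are libraries and lines are means of 2; the thinned untreated mutants run from 1.47% to 6.51%.

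The DSS comparison in these cells asked which genes changed with colitis and was fitted on UMIs summed per library. Of 4911 genes tested, 75 (1.53%) changed over both genotypes by edgeR's quasi-likelihood test at an adjusted p under 0.05, with 28 higher (0.57%) and 47 lower (0.957%). Among them Lmna, Crip1, Emp3, Lgals1 and Lgals3 fell, and Cxcr4, Serpinb6b, Cd6 and Ctla4 rose. Within wildtype mice 2 genes passed (0.0407%), Lmna lower and Cst3 higher. Within mutants 29 passed (0.591%), 7 higher (0.143%) and 22 lower (0.448%). The count of 75 became 7 with untreated wildtype replicate 2 left out, 12 with DSS-treated wildtype replicate 2, 20 with DSS-treated mutant replicate 2, 24 with untreated mutant replicate 1 and 40 with untreated wildtype replicate 1 left out. It became 117 with DSS-treated wildtype replicate 1 and 123 with DSS-treated mutant replicate 1 left out. DESeq2 called 25 genes, of which 23 were among the 75, and without mixed-lineage cells 123 of 4431 genes (2.78%) were called, 67 of them among the 75. The wildtype count was 0 with untreated wildtype replicate 1 left out, 1 with replicate 2 left out, and 7 to 24 with any of the other libraries left out. Without mixed-lineage cells it was 2 (0.0451%), Lmna and Crip1.

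Lmna, which encodes the nuclear lamins A and C (ENSMUSG00000028063, chromosome 3, 88480147 to 88509956, minus strand of GRCm38), fell the most firmly. Its level was 332 and 328 CPM in untreated wildtype, 283 and 295 CPM in untreated mutant, 104 and 108 CPM in DSS-treated wildtype, and 229 and 62.4 CPM in DSS-treated mutant libraries. All 4 DSS-treated libraries lay below all 4 untreated ones, which 4.13% of the 4911 genes did. A further 4.56% lay higher in all 4, so that 8.69% had no overlap. The fall was 1.74 on the log2 scale (log2 fold change -1.74 ± 0.21 SE, adjusted p = 0.00095). It passed the test in each genotype too, at -1.64 ± 0.28 in wildtype (adjusted p = 0.034) and -1.83 ± 0.33 in mutant mice (adjusted p = 0.014). The call over both genotypes held in each of 15 alternative settings. The wildtype call held in 10 of 15 and was lost with either untreated wildtype library left out, with DESeq2, without TMM scaling and in cells with at least 2 UMIs each of Nkg7 and Ccl5. The mutant call was lost with DSS-treated mutant replicate 2 left out. In the Nkg7- Ccl5- cells the level was 195 CPM ± 41.8 untreated and 98.0 CPM ± 18.9 after DSS, and in Gzmk cells 250 ± 54.5 and 121 ± 27.2 (SD, n = 4).

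A list of lamin, LIM domain, annexin, S100, vimentin and galectin genes, which are high in differentiated effector and tissue cells, fell in part. The list was chosen with earlier results of these data known, so its counts describe it and are no test of it. Of its 13 genes 12 were tested, and 5 fell while none rose. All 12 fold changes were negative with a median of -0.58, against 2480 of 4911 negative and a median of -0.0036 over all genes tested. Crip1, a small LIM domain protein (ENSMUSG00000006360, chromosome 12, 113146316 to 113153879, plus strand), stood at 2125, 2377, 2374 and 1463 CPM in untreated libraries and at 920, 1190, 1527 and 1250 CPM after DSS. Untreated mutant replicate 2 overlapped with the treated libraries, and the fold change was -0.85 ± 0.16 (adjusted p = 0.018). Emp3, a membrane protein, stood at 228, 269, 244 and 213 CPM untreated and 131, 161, 134 and 128 CPM after DSS, with no overlap (-0.83 ± 0.16, adjusted p = 0.019). Lgals1 and Lgals3, galectins that bind cell surface glycans, fell by 0.70 and 0.92 on the log2 scale (adjusted p = 0.040 and 0.043). Vim stood at -0.47 ± 0.15 (adjusted p = 0.13) and S100a4 at -0.15 ± 0.18 (adjusted p = 0.73), neither of which passed. Without mixed-lineage cells Anxa2 and S100a10 passed as well, which made 7 genes. The calls for Crip1, Emp3, Lgals1 and Lgals3 were lost with untreated wildtype replicate 2 or untreated mutant replicate 1 left out, and in cells with at least 2 UMIs each of Nkg7 and Ccl5. Emp3, Lgals1 and Lgals3 were also lost with other single libraries left out, and Emp3 and Lgals3 with DESeq2. Lgals3 was lost without TMM scaling and in the additive fit of treatment and genotype as well.

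**Figure D3:**
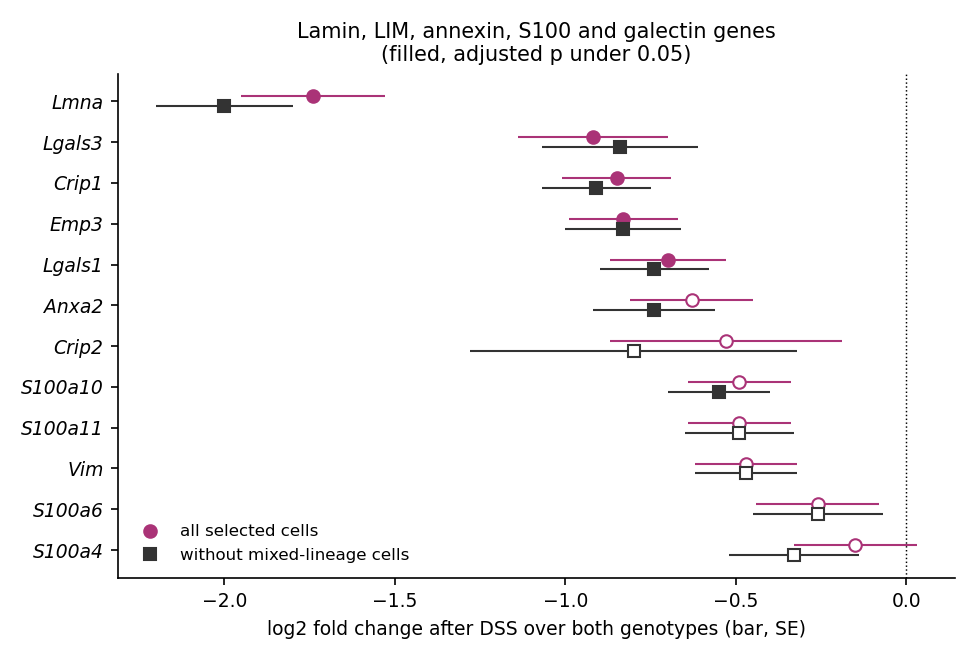
Log2 fold change after DSS over both genotypes (x axis, with SE bars) of the 12 tested lamin, LIM, annexin, S100 and galectin genes (y axis) in the Nkg7+ Ccl5+ Gzmk- cells. Circles are all 933 cells and squares leave out mixed-lineage cells; filled points passed the test at an adjusted p under 0.05; with all 933 cells every fold change is below 0, from -1.74 for Lmna to -0.15 for S100a4.

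Among genes that rose, Cxcr4 encodes the receptor for the chemokine Cxcl12 (ENSMUSG00000045382, chromosome 1, 128588199 to 128592293, minus strand). It stood at 83.8, 63.9, 57.1 and 40.9 CPM in untreated and 85.3, 229, 172 and 165 CPM in DSS-treated libraries. The groups did not overlap, but DSS-treated wildtype replicate 1 lay just above the highest untreated library. Its fold change was 1.33 ± 0.25 (adjusted p = 0.018), and with all cells it was the only one of 8 tested homing receptors to pass. Without mixed-lineage cells 2 of 8 passed, both higher. Cxcr3, the receptor of interferon-induced chemokines, stood at -0.77 ± 0.27 and did not pass (adjusted p = 0.17).

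Of 12 tested granule genes only Serpinb6b rose, and the median fold change of the 12 was 0.12. Serpinb6b (ENSMUSG00000042842, chromosome 13, 32965209 to 32979067, plus strand) stood at 199, 91.6, 127 and 177 CPM untreated and 195, 300, 382 and 437 CPM after DSS. DSS-treated wildtype replicate 1 overlapped with the untreated libraries. The fold change was 1.09 ± 0.21 (adjusted p = 0.019), and 1.45 ± 0.20 without mixed-lineage cells (adjusted p = 0.00011), where the groups no longer overlapped. Ctsw at -0.34 ± 0.19, Gzma at 0.01 ± 0.32 and Gzmb at 0.12 ± 0.24 did not pass (adjusted p = 0.39, 1.0 and 0.87).

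Surface receptors that set the threshold of T cell activation moved upward in part. Of 13 tested, Cd6 and Ctla4 rose and none fell, with a median of 0.41. Cd6, a receptor for the adhesion molecule Alcam, stood at 200, 264, 180 and 177 CPM untreated and 372, 380, 363 and 307 CPM after DSS, with no overlap (0.75 ± 0.15, adjusted p = 0.021). Ctla4, the inhibitory receptor, ran from 268 to 458 CPM untreated and from 436 to 763 CPM after DSS (0.74 ± 0.15, adjusted p = 0.022). Lag3 and Tnfrsf9 stood at 0.80 ± 0.25 and 0.69 ± 0.23 and did not pass (adjusted p = 0.12 and 0.15). Without mixed-lineage cells 3 of 12 passed, Tnfrsf9 being the third (0.70 ± 0.19, adjusted p = 0.039). Foxp3 was screened by UMIs alone, and a cell without a Foxp3 UMI may still hold the transcript. Without thinning, T cells with a Foxp3 or Il17a UMI averaged 30.2% and 31.9% in untreated wildtype and mutant groups. After DSS these means were 40.0% and 47.7%, with libraries that overlapped the untreated ones. The part of undetected Foxp3 cells in these changes was not tested. The calls for Cxcr4, Serpinb6b, Cd6 and Ctla4 were each lost with untreated wildtype replicate 2, DSS-treated wildtype replicate 2 or DSS-treated mutant replicate 2 left out. Leaving out untreated mutant replicate 1 also ended those for Serpinb6b, Cd6 and Ctla4, untreated wildtype replicate 1 those for Cd6 and Ctla4, and untreated mutant replicate 2 that for Ctla4. Cells with at least 2 UMIs each of Nkg7 and Ccl5 gave no call for Cxcr4, Serpinb6b and Cd6, and a fit with treatment and genotype as additive terms gave none for Ctla4.

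Genes induced by interferon fell in part, with 3 of 7 tested lower and none higher and a median of -0.60. Irf7, a transcription factor of the interferon response, ran from 39.2 to 81.8 CPM untreated and from 15.5 to 24.4 CPM after DSS (-1.46 ± 0.34, adjusted p = 0.039). Ifi27l2a ran from 498 to 754 CPM and from 355 to 423 CPM (-0.70 ± 0.16, adjusted p = 0.037), so that neither gene's groups overlapped. In DSS-treated mutant replicate 1, 2 UMIs make 38.2 CPM, so the Irf7 level of that library rests on fewer UMIs and lies near the floor. Ly6a, a surface protein of activated lymphocytes, fell by 0.79 on the log2 scale (adjusted p = 0.040), with overlapping libraries. These 3 calls were lost with replicate 2 of any of the 4 groups left out. Ifi27l2a and Ly6a were also lost in cells with at least 2 UMIs each of Nkg7 and Ccl5 and in the additive fit, Ly6a with DESeq2 and without TMM scaling, and Irf7 with Cd8 cells left out.

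Immediate early and heat-shock genes also fell in part, with Jund and Hsp90aa1 lower among 11 tested. Atf3, a stress-induced transcription factor, stood at 33.8, 77.8, 116 and 95.4 CPM untreated and 21.3, 6.18, 38.2 and 9.93 CPM after DSS, and fell by 2.51 on the log2 scale (SE 0.39, adjusted p = 0.0055). Hspd1, a mitochondrial chaperone, stood at 336, 625, 1074 and 1522 CPM untreated and 439, 229, 344 and 285 CPM after DSS (-1.34 ± 0.23, adjusted p = 0.0082). The untreated mutant libraries were the highest for both Hspd1 and Hsp90aa1, where Hsp90aa1 reached 5366 and 7004 CPM against 1720 and 3407 CPM in untreated wildtype mice. Hspd1 was in turn among the 13 genes called between untreated mutant and wildtype mice. The part of this difference between untreated libraries in the DSS calls was not tested, and within wildtype mice neither heat-shock gene passed (Hspd1 -0.50 ± 0.31, adjusted p = 0.69). Leaving out DSS-treated mutant replicate 2 ended the calls for Atf3, Hspd1, Hsp90aa1 and Jund. The latter 2 were also lost with either wildtype replicate 2 left out, and Jund with untreated mutant replicate 1 left out. In the additive fit of treatment and genotype, Hspd1 and Hsp90aa1 did not pass (adjusted p = 0.053 and 0.084), and Hsp90aa1 did not pass with DESeq2 (adjusted p = 0.084). Fos stood at -0.54 ± 0.15 and Jun at -0.40 ± 0.27, and neither passed (adjusted p = 0.078 and 0.49). Without mixed-lineage cells 4 of 11 were lower, with Fos (-0.64 ± 0.17, adjusted p = 0.039) and Fosb (-0.63 ± 0.18, adjusted p = 0.044) added. With all cells, no gene passed among 7 tested natural killer receptors, 12 residency and adhesion genes, 19 transcription factors, 13 type 1 cytokine and receptor genes or 7 genes of the T cell receptor response. Without mixed-lineage cells the adhesion genes Cd44 (-0.69 ± 0.16, adjusted p = 0.017) and Jaml (-1.74 ± 0.48, adjusted p = 0.043) were lower. The transcription factors Batf (0.72 ± 0.19, adjusted p = 0.038) and Hopx (0.72 ± 0.19, adjusted p = 0.031) were then higher. Within mutants, leaving out mixed-lineage cells took the immediate early and heat-shock genes from 1 to 3 lower, homing receptors from 0 to 1 higher, residency and adhesion genes and interferon-induced genes each from 0 to 1 lower, and activation receptors from 1 to 0 higher. Over both genotypes, 1 of 4 tested macrophage markers was higher with all cells and 0 of 3 without mixed-lineage cells.

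Among the other genes with the smallest p, Ubb, a ubiquitin gene, and Tmsb10, an actin-binding thymosin, fell by 1.14 and 0.90 on the log2 scale (adjusted p = 0.0055 and 0.0071). Man2a1, a mannosidase of the Golgi, and Rilpl2 rose by 1.24 and 0.98 on the log2 scale (adjusted p = 0.013 and 0.018). Lars2 and Gm42418 rose by 1.15 and 1.07 and AY036118 fell by 1.10 on the log2 scale (adjusted p = 0.0071, 0.0089 and 0.0025). Gm42418, which overlaps ribosomal RNA sequence, took 25931 to 44426 CPM in untreated and 54743 to 85177 CPM in DSS-treated libraries. Thbs1 and Igha also rose, but 79.3% and 45.6% of their UMIs lay in mixed-lineage cells, and Igha lost its call without those cells and in 9 of the other 14 settings. The calls for Ubb and AY036118 held in 15 of 15 settings. Leaving out untreated wildtype replicate 2 ended those for Tmsb10, Man2a1, Rilpl2, Lars2 and Gm42418. DSS-treated wildtype replicate 2 ended those for Tmsb10, Man2a1, Rilpl2, Gm42418 and Thbs1, and DSS-treated mutant replicate 2 those for Man2a1, Rilpl2, Lars2 and Thbs1. Rilpl2 was also lost with replicate 1 of either untreated group left out, and Man2a1 in cells with at least 2 UMIs each of Nkg7 and Ccl5.

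**Figure D4:**
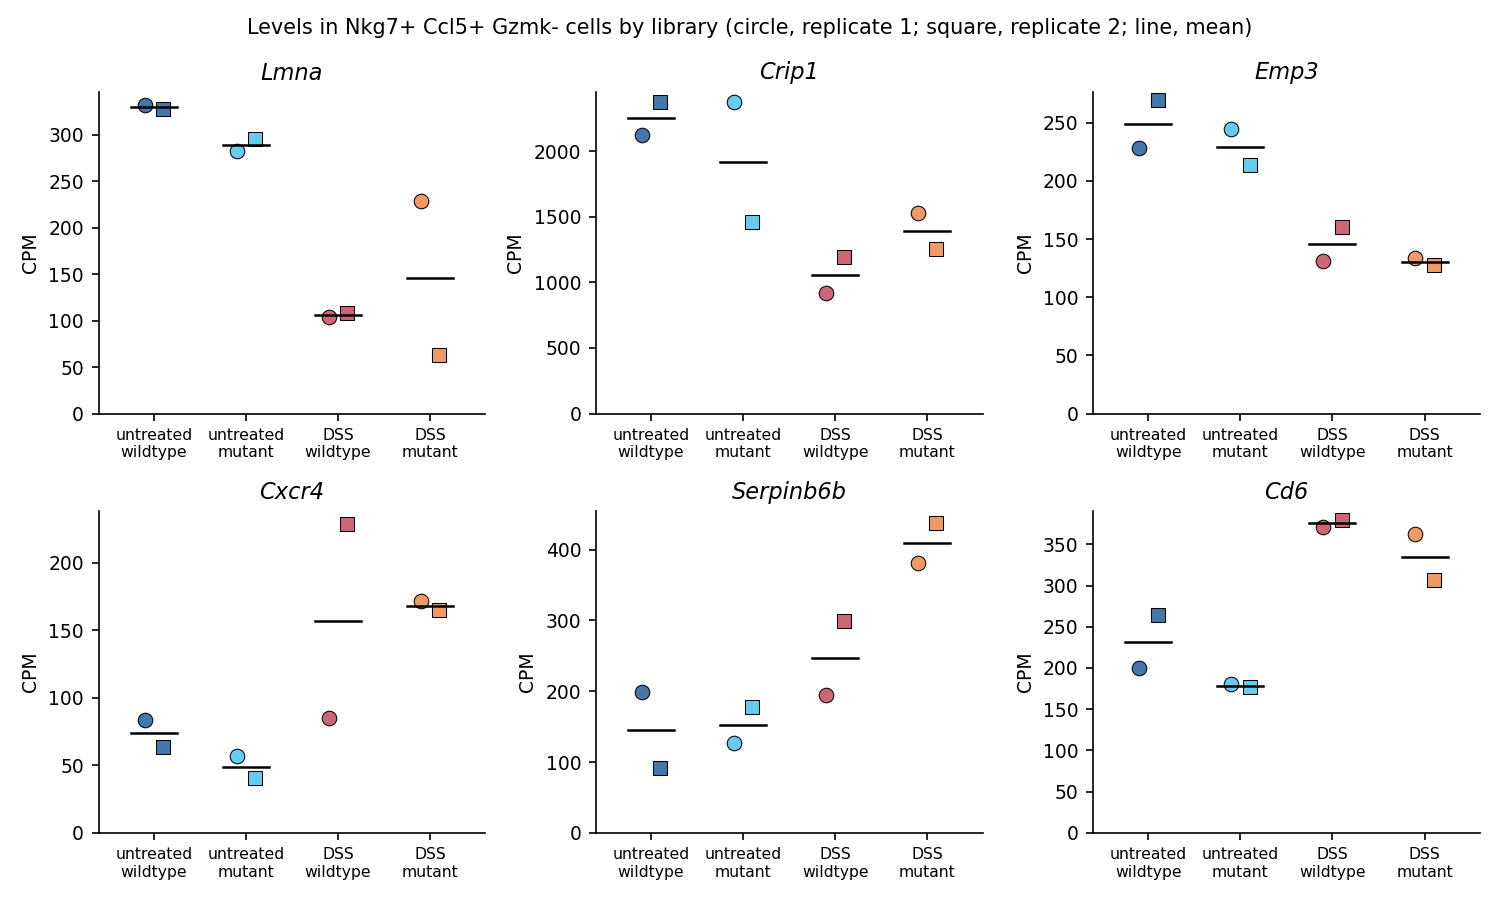
Levels (y axis, CPM of summed UMIs) of 6 genes called after DSS in the Nkg7+ Ccl5+ Gzmk- cells, by group (x axis). Points are libraries and lines are means of 2; Lmna, Emp3, Cxcr4 and Cd6 do not overlap between the 4 DSS-treated and 4 untreated libraries, while 1 library overlaps for Crip1 and Serpinb6b.

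The DSS effect in these cells was then compared with that in the other classes of the same libraries, with the library as a block. Against Gzmk cells, 0 of 5257 genes differed (0%), with 286 genes at an unadjusted p under 0.05 and 0 called by DESeq2. The smallest p values belonged to Klf3, a Krüppel-like factor, at -1.48 ± 0.29, and Csf2rb at 4.42 ± 0.90 (adjusted p = 0.13 for both), and 95.3% of the Csf2rb UMIs lay in mixed-lineage cells. The third was Anxa1, an annexin, at -5.33 ± 1.14 (adjusted p = 0.14). Without mixed-lineage cells, Gzmb differed by 1.39 ± 0.27 (adjusted p = 0.0092) and Iglc1 by -2.98 ± 0.52 (adjusted p = 0.0014). Iglc1 is an immunoglobulin gene, which the definition of mixed-lineage cells did not count. Leaving out untreated wildtype replicate 2 gave 7 genes, DSS-treated mutant replicate 2 gave 4, untreated mutant replicate 2 and DSS-treated wildtype replicate 1 gave 3 each, and each of the other libraries gave 0.

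Against Nkg7- Ccl5- cells, 1 of 8968 genes differed (0.0112%). This was Mzb1, a plasma cell gene, of which 127 of 139 UMIs lay in 1 cell of DSS-treated wildtype replicate 1. The difference for Lmna was -0.71 ± 0.23 (adjusted p = 0.78), for Serpinb6b 0.83 ± 0.21 (adjusted p = 0.37) and for Cd6 0.67 ± 0.16 (adjusted p = 0.28). Without mixed-lineage cells in either class, 9 of 8439 genes differed (0.107%). Penk (1.35 ± 0.24), Rgs16 (1.45 ± 0.33), Lag3 (0.99 ± 0.24), Serpinb6b (0.86 ± 0.20) and Cd6 (0.71 ± 0.17) had the more positive DSS effect in the Nkg7+ Ccl5+ cells. Lmna (-0.90 ± 0.22), Klf3 (-1.05 ± 0.24), Fos (-0.71 ± 0.17) and Ints6 (-1.32 ± 0.28) had the more negative one. The adjusted p of these 9 ran from 0.00016 for Penk to 0.044 for Lag3. The Serpinb6b level in Nkg7- Ccl5- cells was 58.2 CPM ± 10.1 untreated and 72.6 CPM ± 10.0 after DSS, against 149 ± 48.4 and 328 ± 105 in the Nkg7+ Ccl5+ cells (SD, n = 4). With all cells, the count of 1 was 17 with DSS-treated wildtype replicate 1 left out, 15 with untreated mutant replicate 1 left out, 1 with DSS-treated mutant replicate 1 left out and 5 to 8 with any of the others left out.

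Mutant and wildtype mice were compared within each treatment. Among untreated mice 13 of 4911 genes (0.265%) differed, all higher in the mutant. They included Cst3, an inhibitor of cysteine proteases that is abundant in dendritic cells, and the antigen presentation genes H2-Ab1, H2-Eb1, H2-Aa and Cd74. Cst3 stood at 165 and 144 CPM in untreated wildtype and 973 and 1463 CPM in untreated mutant libraries (2.99 ± 0.24, adjusted p = 1.4e-06). Of its 1576 UMIs, 80.3% lay in mixed-lineage cells. The share of such cells was 5.21% and 3.74% in untreated wildtype and 8.99% and 10.3% in untreated mutant libraries. Without them Cst3 stood at 82.2 and 140 CPM against 126 and 114 CPM (0.26, adjusted p = 1.0), and 1 of 4431 genes differed (0.0226%). That gene was Hspd1, at 1.48 ± 0.27 (adjusted p = 0.035). For H2-Ab1, H2-Eb1, H2-Aa and Cd74 the lost call was in part fixed by the definition of mixed-lineage cells, which counts them. The 4 lymphatic endothelial genes Ccl21a, Mmrn1, Timp3 and Lyve1 were also called, and 50.5% to 59.6% of the UMIs of each lay in a single cell of untreated mutant replicate 1. The count of 13 became 1 with untreated wildtype replicate 1 left out, 26 with either DSS-treated wildtype library left out, and 20 with untreated mutant replicate 2 or DSS-treated mutant replicate 1 left out.

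After DSS, Cst3 alone differed between the genotypes (0.0204% of genes tested), lower in the mutant at 153 and 114 CPM against 539 and 414 CPM (-2.0 ± 0.29, adjusted p = 0.0077). Without mixed-lineage cells its fold change was 0.15 and did not pass (adjusted p = 1.0), while Penk alone was called (2.18 ± 0.33, adjusted p = 0.0012, 0.0226% of genes). Cst3 also lost its call with DSS-treated mutant replicate 2 left out, in cells with at least 2 UMIs each of Nkg7 and Ccl5, and with only the 4 libraries compared in the fit. The count of 1 became 10 with DSS-treated wildtype replicate 2 left out, 2 with DSS-treated wildtype replicate 1 left out, and 4 with DSS-treated mutant replicate 1 or either untreated mutant library left out. The DSS effect differed between the genotypes for 11 genes (0.224%), all more negative in the mutant and led by Cst3, H2-Ab1, H2-Aa and Cd74. Without mixed-lineage cells none of these 11 passed and Penk was called (3.58 ± 0.50, adjusted p = 0.00024, 0.0226% of genes). For H2-Ab1, H2-Aa and Cd74 the lost call was in part fixed by the definition of those cells. The count of 11 became 1 with DSS-treated mutant replicate 2 left out, 19 with untreated wildtype replicate 2, 18 with untreated mutant replicate 2 and 23 with DSS-treated wildtype replicate 2 left out. Penk stood at 91.9 and 147 CPM in untreated wildtype, 24.3 and 118 CPM in untreated mutant, 51.8 and 52.5 CPM in DSS-treated wildtype, and 554 and 209 CPM in DSS-treated mutant libraries. The first value of the last group comes from 29 UMIs in 3 cells. With all cells its rise within mutants passed the test (2.35 ± 0.51, adjusted p = 0.039), and the difference between the genotypes did not (3.49 ± 0.72, adjusted p = 0.052). The rise within mutants was lost with untreated mutant replicate 1 or DSS-treated mutant replicate 2 left out, and with DESeq2. Leaving out DSS-treated mutant replicate 2 took the mutant count of 29 DSS genes to 3, untreated mutant replicate 1 to 19, DSS-treated mutant replicate 1 to 86, and DSS-treated wildtype replicates 1 and 2 to 59 and 60.

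**Figure D5:**
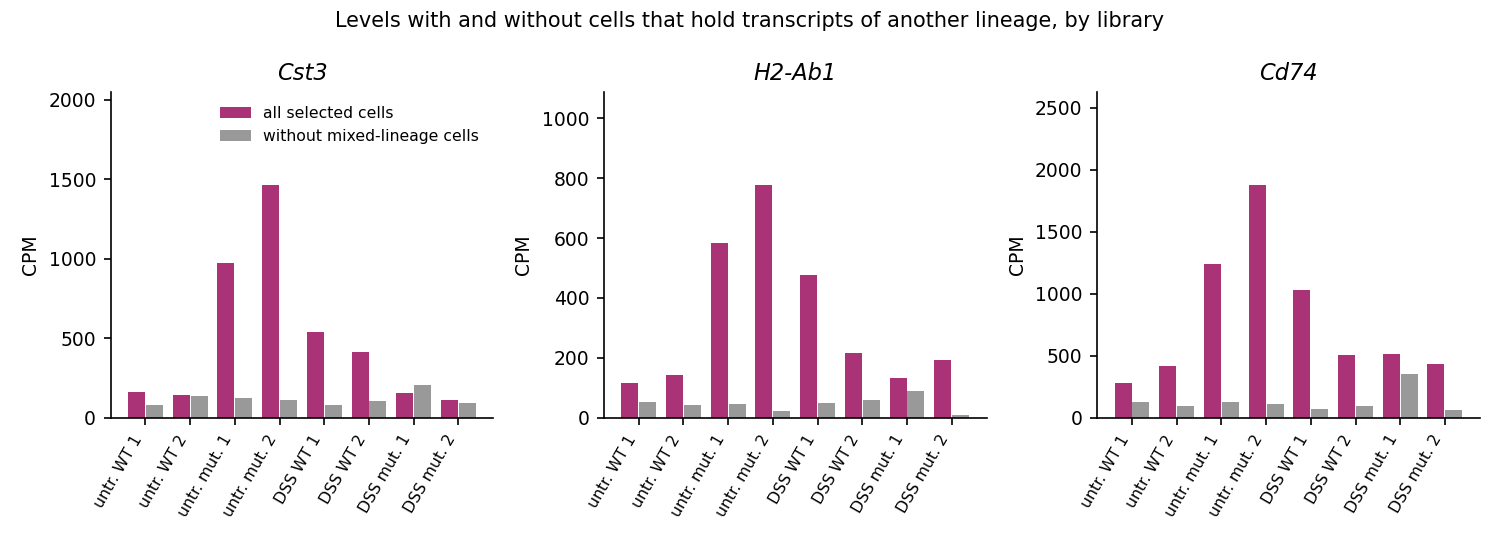
Levels (y axis, CPM of summed UMIs) of Cst3, H2-Ab1 and Cd74 in the 8 libraries (x axis) over all 933 Nkg7+ Ccl5+ Gzmk- cells and without the 65 mixed-lineage cells. H2-Ab1 and Cd74 count toward the definition of those cells, so their drop was in part fixed by it. With all cells the 2 untreated mutant libraries are highest for each gene; without mixed-lineage cells they lie within the range of the other libraries for all 3 genes.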

How the data were processed

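For each library a table of raw, whole-number UMI counts was deposited by the authors. A deposited list of 31053 symbols names the rows: 98.5% of the identifiers in 1 table that could be looked up carried the listed symbol, and the tables agreed at r of 0.975 or more across genes. Cell Ranger 3.1.0, Seurat 4.0.1 and the build mm10 are named in the submitters' processing notes, without a role. Gene positions are from GENCODE M21 on GRCm38. A second deposited table lists the kept cells; how they were chosen, doublet removal included, is not given in the sources used here. No doublet caller was run.

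Libraries were grouped by their titles. Counts were summed per library and class. edgeR 4.0.16 (R 4.3.3) was run with TMM scaling, filterByExpr (count minimum 10), 4 group means over 8 libraries, the quasi-likelihood test and Benjamini-Hochberg adjustment over all genes tested. The 14 genes of the rule and Cd4 were not tested. DESeq2 1.42.0, other filters, other gates and leaving out each library were alternatives. SE is the size of the log2 fold change divided by the square root of F. Shares used cells thinned to 1000 UMIs (seed 11), with the rule applied again to the thinned counts, and an exact permutation test. The test script was tested on simulated counts.

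Named genes were, per comparison, the 6 higher and 6 lower called genes with the smallest p, every called gene of the lists, and the 3 with the smallest p where none was called. For class levels they were the 20 highest and 10 lowest ratios at 50 CPM or more, and list genes. Members and lists were chosen with earlier results of these data known. The mixed-lineage alternative was added after such cells were seen. CPM are relative to all UMIs of the class in a library; fewer cells and fewer transcripts per cell cannot be told apart in the sums. P-values measure the spread between 2 libraries per group. Values of some listed genes are not reported here.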

Additional observations from a re-analysis of the deposited data

Results flagged for a closer look

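The DSS effect differed between mutant and wildtype mice for 6 genes named here, each by the interaction term of edgeR's fit. The differences in log2 fold change were -4.99 for Cst3, -3.38 for H2-Ab1, -2.51 for H2-Aa and -3.00 for Cd74. Of the UMIs of these 4 genes in the Nkg7+ Ccl5+ cells, 80.3%, 89.0%, 86.9% and 87.6% lay in mixed-lineage cells, and none of the 4 passed without those cells (adjusted p = 1.0 for each). H2-Ab1, H2-Aa and Cd74 count toward the definition of mixed-lineage cells. For them the high share and the lost call were in part fixed by it, and only Cst3 lies outside it.

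The differences fitted for Ccl21a and Mmrn1 were -17.50 and -13.31, where groups at 0 UMIs make the fitted value depend on the prior count, so it is no bound. Ccl21a had 2 and 0 UMIs in untreated wildtype, 354 and 62 in untreated mutant, 176 and 0 in DSS-treated wildtype and 0 and 0 in DSS-treated mutant libraries. Mmrn1 had 1 and 0, 57 and 19, 26 and 1, and 0 and 0. A single cell held 59.6% of the Ccl21a UMIs and 52.9% of the Mmrn1 UMIs.

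The DSS effect on Mzb1 was 6.43 higher on the log2 scale in the Nkg7+ Ccl5+ cells than in Nkg7- Ccl5- cells. Its UMIs in the Nkg7+ Ccl5+ cells were 7 and 2, 0 and 1, 127 and 2, and 0 and 0 in the same order of groups, and 91.4% came from 1 cell. Without mixed-lineage cells the difference was -0.55 (adjusted p = 1.0). Mzb1 counts toward the definition of mixed-lineage cells, so the removal of that 1 cell was fixed in advance.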

How the results depend on the processing

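Precision is limited by 2 libraries per group and by 52394 UMIs in DSS-treated mutant replicate 1. Counts of called genes are given in the order DSS in wildtype, DSS in mutant, DSS over both genotypes, mutant against wildtype untreated, mutant against wildtype after DSS, and the DSS effect in mutant minus in wildtype, then the DSS effect against Gzmk cells and against Nkg7- Ccl5- cells. With all data they were 2, 29, 75, 13, 1, 11, 0 and 1. With no filter on low counts they were 71, 117, 148, 72, 21, 69, 27 and 31. DESeq2 gave 25 over both genotypes, 7 between untreated genotypes, 4 for the interaction and 0 against Nkg7- Ccl5- cells. Cells with at least 2 UMIs each of Nkg7 and Ccl5 gave 1, 14, 20 and 0 for DSS in wildtype, in mutant, over both and for the genotypes after DSS, and 7 against Nkg7- Ccl5- cells. Library totals in place of TMM gave 1 for DSS in wildtype. Without mixed-lineage cells, an alternative chosen after seeing the data, there were 123 over both genotypes, 1 between untreated genotypes, 1 for the interaction, 2 against Gzmk cells and 9 against Nkg7- Ccl5- cells. A fit of only the 4 libraries compared gave 19 for DSS in wildtype, 28 between untreated genotypes and 0 between the genotypes after DSS. Leaving out 1 library gave ranges of 0 to 24, 3 to 86, 7 to 123, 1 to 26, 1 to 10, 1 to 23, 0 to 7 and 1 to 17; where it left a group with 1 library, that library was assumed to vary like the other groups. The cause of these changes was not tested.

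Animal numbers in the titles that neighbour each other were tried as a replicate block, though the labels do not say that they share a litter or day. Deviations of gene levels correlated at 0.049 untreated and 0.013 after DSS. Since library sums are small, down to 52394 UMIs, a low correlation cannot decide whether the libraries are paired. The shares of T cells, thinned to 1000 UMIs, lay closer within neighbouring numbers. For wildtype and mutant they were 6.22% and 6.51% against 2.87% and 1.47% untreated, and 1.55% and 0.847% against 3.25% and 3.02% after DSS. A shared batch was not tested, and the share tests used no block. The block gave 25 genes between untreated genotypes and 6 after DSS.

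Signs turned without mixed-lineage cells for H2-Ab1 (-0.26) and H2-Aa (-1.11) between untreated genotypes, Cst3 for DSS in wildtype (-0.16) and between genotypes after DSS (0.15), H2-Aa in the interaction (0.63) and Mzb1 against Nkg7- Ccl5- cells (-0.55). Cst3 for DSS in wildtype also turned in the stricter gate (-0.11). H2-Ab1, H2-Aa and Mzb1 count toward the definition of mixed-lineage cells, so their turns were in part fixed by it. No share test passed under any alternative run. Leaving out 1 library moved the share difference for DSS between -3.03 and -1.35 and for the mutation between -1.69 and 0.408. With Foxp3 or Il17a cells taken out the ranges were -3.43 to -1.58 and -1.94 to 0.449.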

Other observations

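The balance of these cells against Gzmk cells, taken whatever their Nkg7 and Ccl5, was looked at after its values had been seen, so it is given with no test. The Nkg7+ Ccl5+ cells made up 71.0% and 67.7% of the 2 classes together in untreated wildtype and 85.5% and 55.8% in untreated mutant libraries, without thinning. After DSS they made up 52.4% and 50% in wildtype and 38.3% and 39.0% in mutant libraries, so all 4 DSS-treated libraries lay below all 4 untreated ones. Thinned to 1000 UMIs, the values were 72.7%, 64.0%, 88.1% and 56.8% untreated and 50.7%, 54.4%, 39.5% and 44.7% after DSS, again without overlap. Thinned to 1500 UMIs the groups overlapped, with 80.5%, 68.0%, 88.2% and 47.5% untreated and 50.6%, 59.2%, 42.5% and 43.4% after DSS. The Gzmk cells themselves made up 0.882% to 2.33% of T cells in untreated and 1.29% to 3.74% in DSS-treated libraries after thinning, which overlap.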
